A study of Mus musculus with 49 samples.

Results

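Inguinal white adipose tissue (iWAT), a subcutaneous fat pad, was compared between the inbred mouse strains C57BL/6 and 129S1/SvImJ by RNA-seq. The comparison took the iWAT libraries of the low fat diet experiment and split them by the strain in their labels, which gave 4 C57BL/6 and 4 129S1/SvImJ libraries, 8 of the 49 samples of the series. All 8 came from mice on the control low fat diet D12450B, which the labels give as 12 weeks, with no drug. The labels of these samples give no age, sex or date, and do not say whether a replicate is 1 animal or a pool, and the p-values below therefore reflect only how these libraries vary. Libraries of epididymal fat (eWAT), the gonadal visceral pad, from mice of the same strains and diet (5 C57BL/6 and 4 129S1/SvImJ) served as the comparison.

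White fat stores triglyceride in adipocytes and can make fatty acids from glucose through a pathway that starts with cytosolic acetyl-CoA. The inguinal depot of mice can also hold beige adipocytes, which express the uncoupling protein UCP1, and it encloses a lymph node. Type I interferons induce antiviral genes through transcription factors that bind a promoter element with repeated GAAA.

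Values were the authors' normalized values per transcript, whole numbers with a floor of 1, and the depth per library is unknown. Library totals were 6757422 to 6768045 and the maximum was 267214 in all 8. The C57BL/6 libraries were coarser: they held 467 to 679 distinct values, against 1615 to 1688 in 129S1/SvImJ, and had 32.1% to 37.7% of transcripts at the floor, against 22.8% to 26.3%. The 4 lowest values in C57BL/6 replicate 3 were 1, 11, 21 and 31, whereas those of each 129S1/SvImJ library were 1, 2, 3 and 4. The libraries are numbered 26 to 29 in C57BL/6 and 42 to 45 in 129S1/SvImJ, so strain, library series and coarseness cannot be told apart. Adipocyte markers were high in every library, with Adipoq at 14713 to 19917 and Plin1 at 7297 to 11814. The subcutaneous markers Tbx15 (61 to 162) and Shox2 (12 to 50) were present, and of 11 mesothelial and visceral markers measured, 9 lay at 12 or below in all 8, Wt1 and Bnc1 at the floor. The other two, Cldn15 (87 to 353) and Gpm6a (10 to 62), passed the filter described below and were not called. A list of 13 epididymis genes summed to 13 to 22, at or near its floor.

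Lymphocyte transcripts set 3 libraries apart. Summed over 25 lymphocyte genes, C57BL/6 replicates 1 to 4 held 336, 272, 105 and 5526, and 129S1/SvImJ replicates 1 to 4 held 12601, 122, 244 and 5009. Ms4a1, the B cell surface protein CD20, was 15, 1, 1 and 369 in C57BL/6 and 795, 1, 3 and 191 in 129S1/SvImJ. C57BL/6 replicate 4 and 129S1/SvImJ replicates 1 and 4 were therefore high in lymphocyte genes, and 7 of the 25 genes lay at the floor in at least 3 of the other 5 libraries. Across genes, C57BL/6 replicate 4 correlated more closely with 129S1/SvImJ replicate 4 (0.933) than with its own group (0.842 to 0.884). In the test described next, 0 of the 25 passed between strains (median log2 fold change 1.80, 129S1/SvImJ minus C57BL/6). That median moved with single libraries, from 0.80 without 129S1/SvImJ replicate 1 to 3.05 without C57BL/6 replicate 4. The main counts are also given without these 3 libraries, an alternative chosen after seeing the data. Whether the lymph node was removed is not given in the labels, and the part of its transcripts in other results was not tested beyond those counts.

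**Figure D1:**
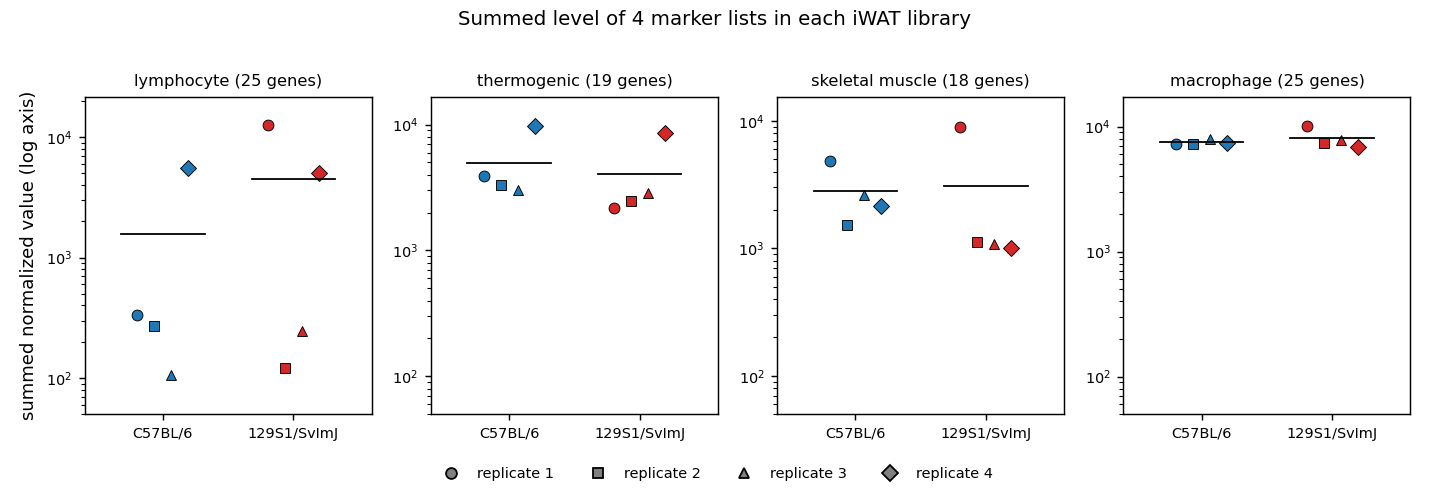
Summed normalized value (log axis) of 4 marker lists in each iWAT library of C57BL/6 (blue) and 129S1/SvImJ (red), with a shape per replicate number and a bar at the group's arithmetic mean. C57BL/6 replicate 4 and 129S1/SvImJ replicates 1 and 4 stand far above the rest for the lymphocyte list, replicate 4 of both strains for the thermogenic list, and 129S1/SvImJ replicate 1 for skeletal muscle.

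Between the strains, 10 antiviral interferon genes and 3 fatty acid synthesis genes were lower in 129S1/SvImJ iWAT, 1 adipocyte identity gene was higher, and the largest differences were in genes near the floor in 1 strain. Of 22869 gene symbols, 12203 had a mean of 20 or more in a group and were tested on log2(value + 1) with limma. At a Benjamini-Hochberg adjusted p under 0.05, 245 genes were called (2.01%), 80 higher (0.656%) and 165 lower (1.35%) in 129S1/SvImJ. The median log2 fold change over all genes tested was 0.02, and 1945 genes had an unadjusted p under 0.05. In all 245 the values of the groups did not overlap, which was so for 1338 of all tested genes (11%), 4.35% higher and 6.61% lower in 129S1/SvImJ. Of the called genes, 185 passed the filter in both strains, 25 of those higher in 129S1/SvImJ had a C57BL/6 mean under 20, and 35 of those lower had a 129S1/SvImJ mean under 20. These 25 and 35 passed only through the strain where they were high, so their direction was set by the filter. The count rested on single libraries: it was 109, 113 and 138 without C57BL/6 replicates 1, 2 and 3, and 138 and 135 without 129S1/SvImJ replicates 2 and 3. Without the 3 lymphocyte-rich libraries it was 587 (4.81%; 289 higher, 298 lower), of which 189 were among the 245, and all 245 kept their sign. With the lymphocyte list's level as a term of the fit it was 895 (7.33%), all 245 included.

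The antiviral interferon list held the most called members of any list. Of its 33 tested genes, 10 were lower in 129S1/SvImJ and 0 higher, and the median log2 fold change was -0.96, with 31 below 0. Of the 33, 26 passed the filter in both strains, 6 through C57BL/6 alone and 1 through 129S1/SvImJ alone. The 6, with Trim12a and Trim30d among them, had to be lower in 129S1/SvImJ, and they enter these counts and the median. Without the 3 lymphocyte-rich libraries 9 were called lower, with a median of -0.87, and with the lymphocyte term 21 were called lower. Calls rose over all 12203 tested genes too: 165 were lower in the main fit, 298 without the 3 libraries and 467 with the term. The 10 genes were the restriction factor genes Bst2, Trim12a and Trim30d, the RNA-binding Ifit1 and Ifit3, the oligoadenylate synthetase genes Oas2 and Oasl2, Rsad2 (viperin), Rtp4 and Parp14. Oas2, Oasl2, Ifit1, Rsad2 and Parp14 fall outside the rule for named genes and were added after their values were seen, as was Irf7 below.

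Promoters of these genes are shown because the members were lower together. Windows of 250 bases before the start were in RefSeq's promoter table (GRCm38.p6) for 7 of the 10 genes. Of the 7, 5 held the interferon-stimulated response element core, GAAA followed by any 2 bases and GAAA, on either strand (Bst2, Ifit1, Ifit3, Rsad2 and Trim30d). So did 4 of the 16 tested members with an entry that were not called. Among all 8678 genes tested in iWAT with an entry, 3.17% held it, and of all 32851 promoter windows, 2.98% did. Oasl2 and Trim12a held no match in their windows. With 7 of 10 matched, the share over the list cannot be read as a property of it. The lines below give bases 170 to 71 before the start of 4 of them, 5′ to 3′ on the gene's strand, with the motif in capitals, which reads TTTC, any 2 bases and TTTC where it lies on the other strand. They lie at chr8:71537543-71537642 (minus strand), chr19:34583359-34583458 (plus), chr19:34640719-34640818 (plus) and chr12:26456523-26456622 (minus).
Bst2: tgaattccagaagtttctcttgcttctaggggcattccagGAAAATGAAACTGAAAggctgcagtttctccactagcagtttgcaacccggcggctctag
Ifit3: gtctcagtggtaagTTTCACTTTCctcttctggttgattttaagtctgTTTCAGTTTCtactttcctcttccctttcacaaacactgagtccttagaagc
Ifit1: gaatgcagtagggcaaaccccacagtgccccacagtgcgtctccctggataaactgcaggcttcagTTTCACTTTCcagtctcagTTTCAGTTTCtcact
Rsad2: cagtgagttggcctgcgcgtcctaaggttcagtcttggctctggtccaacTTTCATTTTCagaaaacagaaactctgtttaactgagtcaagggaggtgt
The stretch of Bst2 holds 2 overlapping matches, those of Ifit3 and Ifit1 hold 2 separate ones each, and that of Rsad2 holds 1. A match describes these letters of the reference build only. The strains' own sequences were not compared, and binding was not measured.

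Bst2, whose product tethers budding virus particles to the cell surface, was 215, 207, 199 and 195 in C57BL/6 and 62, 51, 54 and 60 in 129S1/SvImJ (log2 fold change -1.83 ± 0.17 SE, adjusted p = 0.000646). Each group spanned a narrow range and the groups lay far apart. Ifit3 was 262, 174, 251 and 240 against 44, 73, 86 and 55 (-1.86 ± 0.24, adjusted p = 0.0041). Rtp4, a chaperone of receptors that interferon induces, was 143, 117, 132 and 146 against 23, 40, 46 and 31 (-1.95 ± 0.26, adjusted p = 0.0041). Both were lowest in 129S1/SvImJ replicate 1, the library richest in lymphocyte transcripts, and neither group overlapped the other. Trim12a was 102, 86, 68 and 154 against 1, 1, 1 and 2 (-5.48 ± 0.52, adjusted p = 0.000682), so it lay at or next to the floor in 129S1/SvImJ. Trim30d was 62, 109, 77 and 171 against 4, 7, 4 and 3 (-4.21 ± 0.46, adjusted p = 0.00128). These 5 genes stayed called whichever single library was left out.

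The remaining 5 depended more on single libraries. Oas2, which makes the activator of RNase L, was 129, 247, 113 and 231 against 14, 53, 41 and 30 (-2.41 ± 0.41, adjusted p = 0.0154), and missed the threshold when C57BL/6 replicate 1 or 2 was left out (up to 0.0761). Oasl2 was 108, 191, 132 and 137 against 34, 66, 61 and 38 (adjusted p = 0.0222, up to 0.0853 without C57BL/6 replicate 2 or 3 or 129S1/SvImJ replicate 4). Ifit1 was 122, 109, 50 and 154 against 16, 35, 26 and 20 (adjusted p = 0.0225). It missed the threshold when C57BL/6 replicate 1, 2 or 4 or 129S1/SvImJ replicate 3 or 4 was left out (up to 0.0906). For all 3, every 129S1/SvImJ library lay below the C57BL/6 range. Rsad2 (88, 93, 68 and 137 against 9, 39, 27 and 20, adjusted p = 0.0341) was lost without any 1 C57BL/6 library or 129S1/SvImJ replicate 3 or 4 (up to 0.111). Parp14 (1014, 932, 712 and 1465 against 596, 430, 379 and 515, adjusted p = 0.0396) was lost without C57BL/6 replicate 1, 2 or 4 or 129S1/SvImJ replicate 2, 3 or 4 (up to 0.121). The interferon regulatory factor gene Irf7 was 202, 247, 183 and 352 against 135, 120, 125 and 192 (adjusted p = 0.144). It was not called, and its groups overlapped in part.

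**Figure D2:**
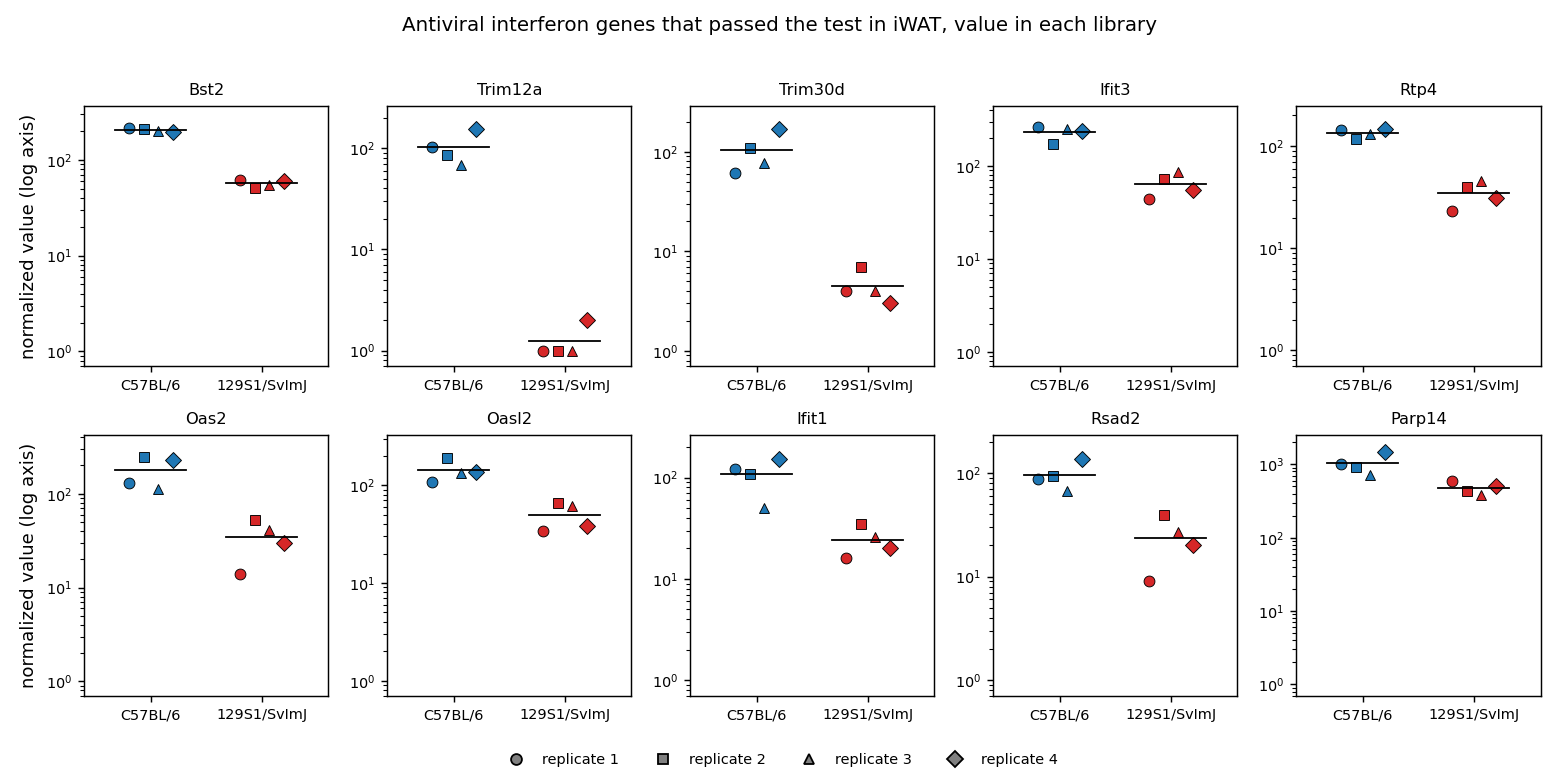
Normalized value (log axis) in each iWAT library of the 10 antiviral interferon genes that passed the test, C57BL/6 in blue and 129S1/SvImJ in red, with a bar at each group's arithmetic mean. The 129S1/SvImJ values lie below every C57BL/6 value for all 10, and those of Trim12a lie at 1 or 2.

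Among the interferon-induced GTPase genes, whose products act on intracellular pathogens, 1 of 19 tested was higher and 3 were lower, with a median of -0.40 (-0.80 without C57BL/6 replicate 3). Of the 19, 16 passed the filter in both strains. Gbp1 passed only through 129S1/SvImJ and Gm4951 only through C57BL/6, so those members had to differ. Gbp1 was 15, 1, 11 and 5 in C57BL/6 and 216, 294, 282 and 244 in 129S1/SvImJ (5.22 ± 0.56, adjusted p = 0.00128), near the floor in C57BL/6. Irgm2 was 346, 395, 297 and 388 against 117, 97, 111 and 129 (-1.64 ± 0.16, adjusted p = 0.000749), and Gm4951 was 56, 101, 41 and 90 against 6, 7, 12 and 10 (-2.86 ± 0.43, adjusted p = 0.00734). Gbp3 was 339, 355, 183 and 312 against 135, 120, 149 and 120 (-1.14 ± 0.22, adjusted p = 0.0272), and missed the threshold when C57BL/6 replicate 1, 2 or 4 or 129S1/SvImJ replicate 2, 3 or 4 was left out (up to 0.105). Irgm2 and Gbp3, which passed the filter in both strains, were lower. Near-identical genes of this family may share reads. None of the 20 antigen presentation genes was called. Their summed level was 27438 to 27989 in C57BL/6 replicates 1 to 3, 35823 in replicate 4, and 61597 in 129S1/SvImJ replicate 1, against 31554 to 35130 in the other 3.

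Of the fatty acid synthesis genes, 3 were lower in 129S1/SvImJ, and replicate 4 of that strain stood apart from the other 3. Of 21 tested, all with a mean of 20 or more in both strains, 3 were called lower and 0 higher. The median was -1.05, and 19 were below 0. Aacs, which makes cytosolic acetoacetyl-CoA, was 2402, 2155, 1490 and 2205 in C57BL/6 and 681, 700, 778 and 1076 in 129S1/SvImJ (-1.35 ± 0.20, adjusted p = 0.00672), and it stayed called without any single library. Me1, the malic enzyme that supplies NADPH, was 2042, 2494, 2732 and 1802 against 387, 663, 850 and 1251 (-1.63 ± 0.31, adjusted p = 0.0263), lost without C57BL/6 replicate 1, 2 or 3 or 129S1/SvImJ replicate 2 or 3 (up to 0.105). The desaturase gene Fads1 was 447, 627, 482 and 347 against 162, 235, 198 and 263 (-1.14 ± 0.21, adjusted p = 0.0225), lost without C57BL/6 replicate 1, 2 or 3 or 129S1/SvImJ replicate 3 (up to 0.0812). The 3 genes did not overlap between strains.

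The first enzymes of the pathway showed how far 1 library moved the result. Acly, ATP citrate lyase, which makes cytosolic acetyl-CoA, was 6767, 9749, 11346 and 7031 in C57BL/6 and 1994, 1298, 1906 and 6408 in 129S1/SvImJ (-1.84 ± 0.44, adjusted p = 0.069). Acaca, the carboxylase of the committed step, was 4943, 6301, 5460 and 4851 against 1225, 1082, 1482 and 5130 (adjusted p = 0.105). Fasn, fatty acid synthase, was 67869, 67869, 82358 and 67869 against 34576, 16663, 29720 and 82358 (adjusted p = 0.227). In each, 129S1/SvImJ replicates 1 to 3 lay below every C57BL/6 library while replicate 4 lay far above them. Acaca and Fasn, named after their values were seen, overlapped between strains, and Acly did not. When 129S1/SvImJ replicate 4 was left out, Acly was called (-2.32, adjusted p = 0.00199). Without the 3 lymphocyte-rich libraries, which include it, 11 of the 21 were called lower and 1 higher, G6pdx, and the median was -1.22. Over all 12203 tested genes, 298 were called lower and 289 higher in that fit. Scd1, the main stearoyl-CoA desaturase of fat, held the maximum of 267214 in all 8 libraries, so its difference cannot be read. In 129S1/SvImJ replicate 4 the summed thermogenic list was 8639, against 2181 to 2879 in the other 3. In C57BL/6 replicate 4 it was 9716, against 3008 to 3933 in the rest of that strain. There Acly, Acaca and Fasn were 7031, 4851 and 67869, none above the range of the strain's other libraries. The part of thermogenic cells in the result was not tested.

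**Figure D3:**
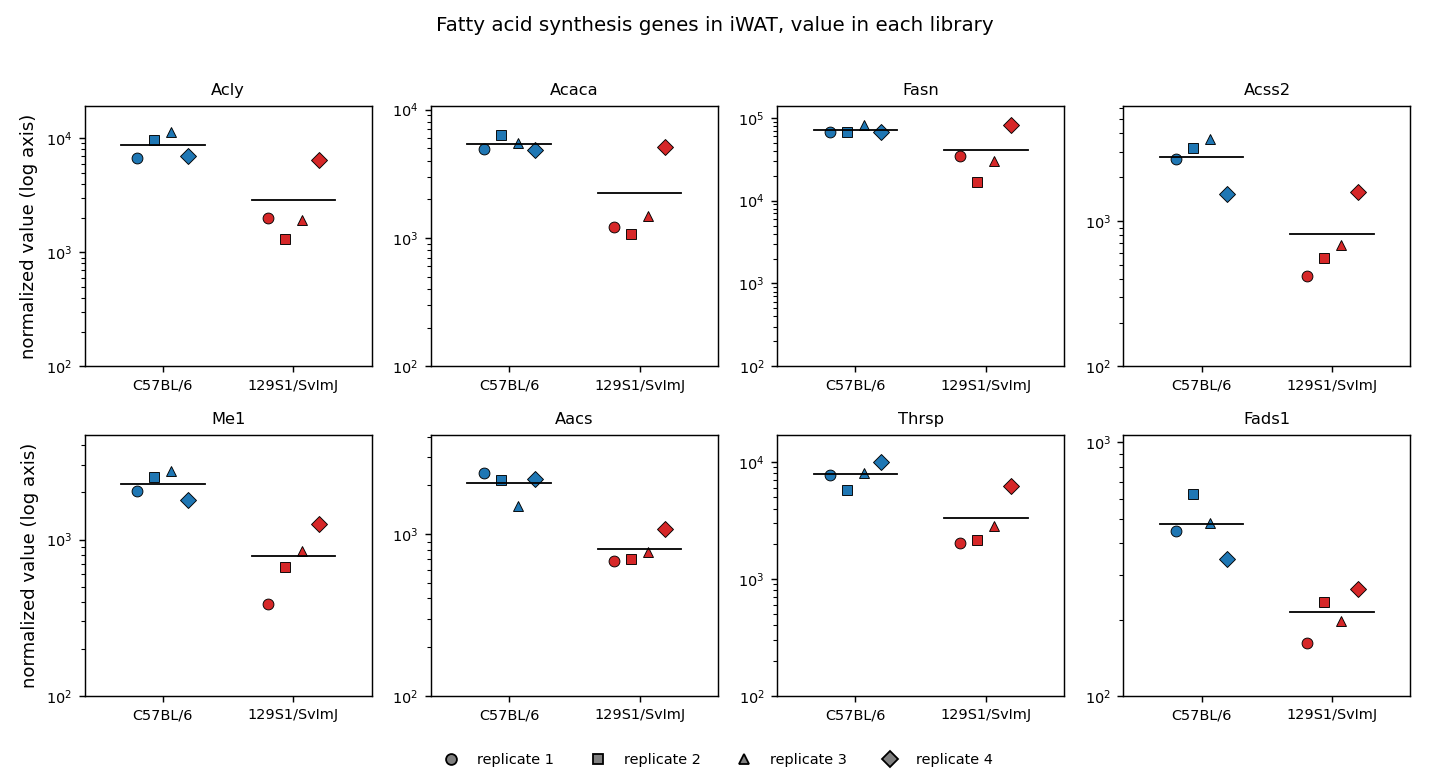
Normalized value (log axis from 100) in each iWAT library of 8 fatty acid synthesis genes, C57BL/6 in blue and 129S1/SvImJ in red, with a bar at each group's arithmetic mean. 129S1/SvImJ replicate 4 (diamond) lies above the other 3 of its strain for Acly, Acaca, Fasn and Acss2, and Me1, Aacs and Fads1 do not overlap between strains.

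Sterol synthesis and clock genes held few calls. In the sterol list 2 of 21 tested genes were lower, with a median of -0.44 (-0.72 without C57BL/6 replicate 4). Insig1, which retains the sterol sensor SCAP in the endoplasmic reticulum, was 2732, 2134, 2597 and 1795 against 1303, 1225, 1346 and 1504 (-0.77 ± 0.16, adjusted p = 0.0413), and its call was kept only without C57BL/6 replicate 4 among the 8 single omissions (highest adjusted p = 0.126). Sc4mol (183, 223, 159 and 162 against 93, 115, 102 and 74, adjusted p = 0.0453) was lost in all 8 (up to 0.129). Per3, a period gene of the circadian clock, was 1423, 1491, 1255 and 987 against 313, 486, 418 and 645 (-1.50 ± 0.22, adjusted p = 0.00712). It was called lower in every fit with 1 library left out and was the 1 called member of 16 tested clock genes (median -0.61). Dissection times are not given in the labels.

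Adipocyte identity genes showed 1 call. Of 22 tested, Mgll alone was higher in 129S1/SvImJ, with a list median of 0.04 (-0.059 without 129S1/SvImJ replicate 4 and 0.11 without 129S1/SvImJ replicate 1). Mgll, the monoglyceride lipase of the last lipolytic step, was 6361, 5730, 7031 and 6106 in C57BL/6 and 9248, 14237, 14713 and 11101 in 129S1/SvImJ (0.95 ± 0.18, adjusted p = 0.0231), and missed the threshold when C57BL/6 replicate 1, 2 or 3 or 129S1/SvImJ replicate 2 or 3 was left out (up to 0.0984). Pparg, the nuclear receptor that drives adipocyte differentiation, was 1369, 1781, 1640 and 1007 against 1175, 1598, 1402 and 1937 (0.09 ± 0.21, adjusted p = 0.879). Its values overlapped and its sign turned without replicate 4 of either strain. Fabp4 was 45057, 34576, 34576 and 45057 against 54365, 82358, 82358 and 58778 (0.79 ± 0.19, adjusted p = 0.0689). It missed the threshold although the groups did not overlap, and passed it when 129S1/SvImJ replicate 1 was left out (0.90, adjusted p = 0.0456). High values recur exactly between libraries, as in Fabp4 and Fasn, so few steps separate the most abundant genes.

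The leptin gene Lep was 5996, 8939, 13444 and 3791 against 8746, 15104, 15870 and 5730 (adjusted p = 0.597) and was lowest in replicate 4 of both strains. Adipoq (adjusted p = 0.716), Cd36 (0.918) and Plin1 (0.997) were not called. Nnt, the mitochondrial transhydrogenase gene, was 156, 126, 141 and 95 against 190, 202, 201 and 136 (0.50 ± 0.21, adjusted p = 0.281), so the groups overlapped. Agouti, with the symbol a, was at 1 in 7 libraries and at 2 in 129S1/SvImJ replicate 4, and was not tested.

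Thermogenic genes varied widely between replicates of a strain. None of 16 tested was called, and the median of -0.24 turned with single libraries, from -0.74 without 129S1/SvImJ replicate 4 to 0.35 without C57BL/6 replicate 4. Ucp1 was 156, 1, 11 and 2108 in C57BL/6 and 86, 68, 42 and 2392 in 129S1/SvImJ. Cidea, a lipid droplet protein of brown and beige adipocytes, was 302, 191, 167 and 2118 against 337, 354, 398 and 1744. Replicate 4 of each strain was the highest library for Ucp1, Cidea, Cox8b, Cpt1b, Otop1 and Dio2, above all 6 other libraries. Zic1, a marker of classical brown fat, was at the floor in all 8. Prdm16, a co-regulator of beige and brown adipocyte genes, was 295, 199, 183 and 183 against 59, 82, 72 and 154 and missed the threshold (-1.29 ± 0.29, adjusted p = 0.0545). It passed the threshold when 129S1/SvImJ replicate 4 was left out (adjusted p = 0.0145), as did the adrenergic receptor gene Adrb3 (1621, 1916, 1693 and 1446 against 794, 709, 945 and 1486, adjusted p = 0.0907 with all libraries and 0.0169 without it). In bulk tissue, fewer cells of a type and less RNA per cell cannot be told apart.

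Markers of other cells in the pad gave few calls. None of 24 tested macrophage genes was called (median -0.078, and -0.11 to 0.044 without single libraries). Trem2, a lipid receptor of macrophages, was 22, 10, 1 and 9 against 63, 390, 366 and 43 (4.07 ± 0.91, adjusted p = 0.0576), with the groups apart and 129S1/SvImJ replicates 2 and 3 far above 1 and 4. When 129S1/SvImJ replicate 4 was left out it was called (adjusted p = 0.0349). Fcgr1, an Fc receptor gene, was 29, 61, 31 and 52 against 7, 16, 7 and 9 (-2.04 ± 0.47, adjusted p = 0.0545). Trem2 passed the filter only through 129S1/SvImJ and Fcgr1 only through C57BL/6, so their directions were set by it. Of 17 endothelial genes Flt1, a receptor for VEGF, was lower (538, 722, 491 and 608 against 164, 315, 335 and 264, -1.16 ± 0.23, adjusted p = 0.0296). The list median was -0.25 (-0.38 without C57BL/6 replicate 4), and the call of Flt1 was lost without any 1 C57BL/6 library or 129S1/SvImJ replicate 4 (up to 0.113).

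Among 29 extracellular matrix genes, Col6a3, a chain of the microfibril collagen VI, was lower (7693, 9949, 8365 and 5536 against 3006, 3602, 4419 and 3075, -1.15 ± 0.20, adjusted p = 0.0186). It lost its call without C57BL/6 replicate 1, 2 or 3 (up to 0.0791), and the list median was -0.14 (-0.30 without 129S1/SvImJ replicate 3 and -0.072 without 129S1/SvImJ replicate 4). C2, a protease of the classical complement pathway, was lower (1374, 1043, 887 and 969 against 442, 577, 539 and 411, -1.11 ± 0.18, adjusted p = 0.0101), 1 of 17 in its list, and was called in every fit with a library left out. The secreted glutathione peroxidase gene Gpx3 was lower, 1 of 23 antioxidant genes (1507, 1164, 1023 and 1324 against 451, 634, 627 and 823, adjusted p = 0.0296), and missed the threshold when any 1 C57BL/6 library or 129S1/SvImJ replicate 2 or 3 was left out (up to 0.107). These 3 genes did not overlap between strains. Of 16 muscle genes only Myl1 was called, lower in 129S1/SvImJ (209, 134, 159 and 65 against 46, 41, 47 and 35, adjusted p = 0.0375), which missed the threshold when any 1 library but C57BL/6 replicate 4 or 129S1/SvImJ replicate 1 was left out (up to 0.119). Summed, the muscle list was 4868, 1524, 2636 and 2162 in C57BL/6 and 9006, 1123, 1077 and 1005 in 129S1/SvImJ. The list was thus highest in 129S1/SvImJ replicate 1, where Myl1 was 46. No gene was called among 16 adipose progenitor, 23 fatty acid oxidation, 22 insulin signalling and adipokine or 6 erythroid genes tested.

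**Figure D4:**
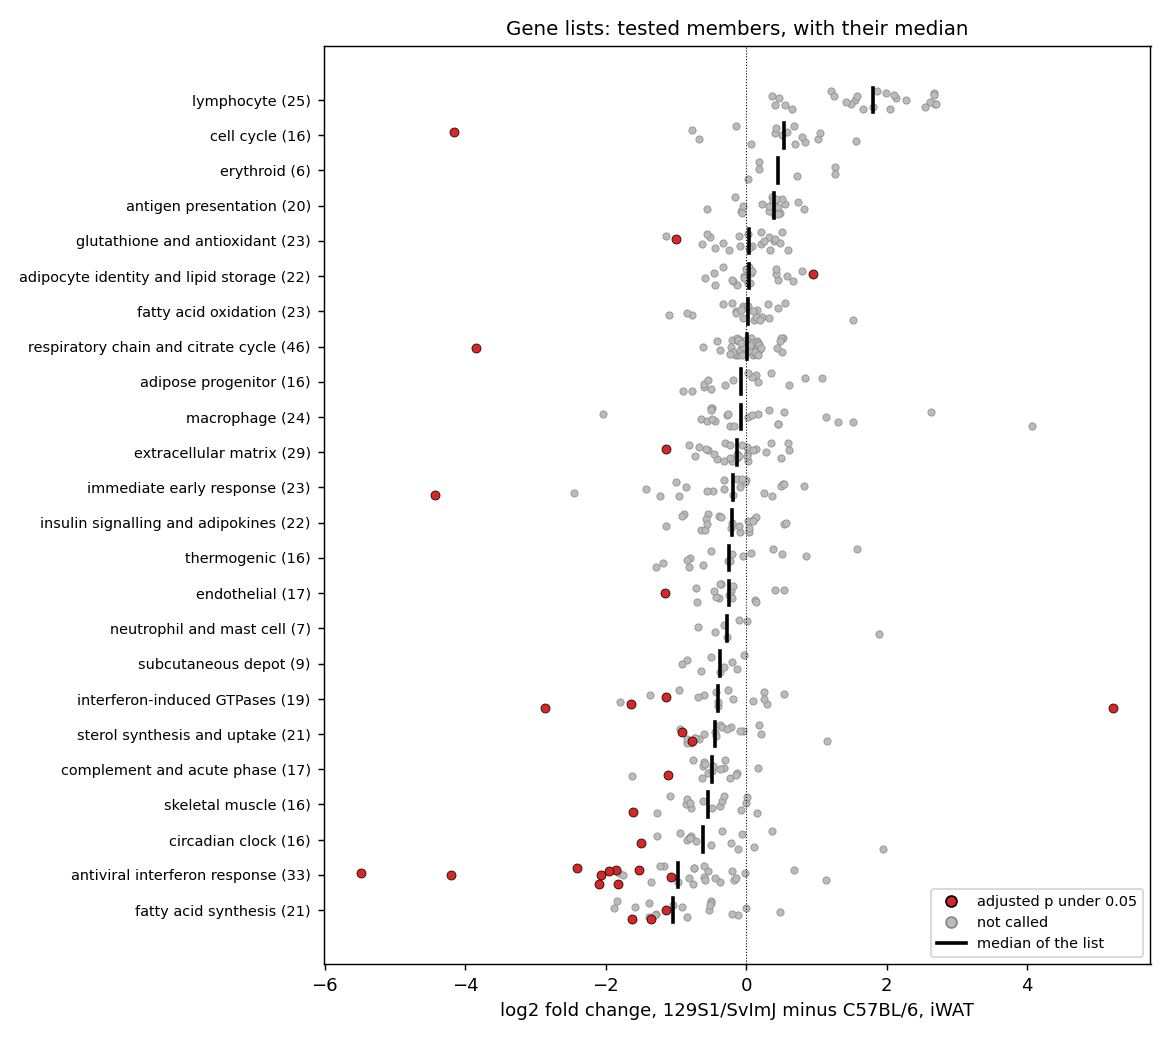
Log2 fold change in iWAT (129S1/SvImJ minus C57BL/6) of every tested member of the 24 lists with at least 5 tested genes, called members in red and list medians as black bars. Fatty acid synthesis (-1.05) and the antiviral response (-0.96) have the lowest medians, and the lymphocyte list (1.80) the highest with 0 calls.

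The largest differences were in genes close to the floor in 1 strain. Every gene named in this paragraph passed the filter only through 129S1/SvImJ, so it had to be higher there. Hal, histidine ammonia lyase, which degrades histidine, was 1, 1, 11 and 1 in C57BL/6 and 271, 660, 760 and 438 in 129S1/SvImJ (7.31 ± 0.60, adjusted p = 0.000508). Gchfr, the feedback regulator of GTP cyclohydrolase, was at the floor in all 4 C57BL/6 libraries and 66, 77, 132 and 112 in 129S1/SvImJ, and the long non-coding RNA BC018473 was at the floor against 348, 105, 86 and 293. Hal lay at 11 or below in every C57BL/6 library. For Gchfr and BC018473, as for all 7 called genes with every C57BL/6 library at the floor, no fold is given. Gdpd3, a lysophospholipase D, was 1, 27, 1 and 13 against 366, 284, 269 and 352 (5.65 ± 0.81, adjusted p = 0.00818). The antitrypsin genes Serpina1b (29, 10, 1 and 5 against 664, 876, 1312 and 408) and Serpina1e (1, 1, 1 and 5 against 108, 195, 259 and 85) were called higher (largest adjusted p = 0.00315), though members of this cluster are near-identical and may share reads.

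In the other direction, Unc5a, a netrin receptor, was 129, 149, 159 and 47 in C57BL/6 and 3, 4, 7 and 2 in 129S1/SvImJ (-4.56 ± 0.52, adjusted p = 0.00157). Cyp2f2, a cytochrome P450, was 302, 271, 199 and 593 against 11, 14, 7 and 49 (-4.26 ± 0.54, adjusted p = 0.0036), highest in replicate 4 of each strain. Pttg1, securin, an inhibitor of the protease separase, was 136, 134, 167 and 137 against 12, 3, 8 and 8 (-4.16 ± 0.39, adjusted p = 0.000646), 1 of 16 tested cell cycle genes. The median of that list was 0.54, 0.16 without 129S1/SvImJ replicate 1 and 0.048 without the 3 lymphocyte-rich libraries. In none of the 3 did the strains overlap, and every 129S1/SvImJ value lay at 49 or below. Rab6b, a GTPase of Golgi transport, was 95, 101, 68 and 118 against 8, 2, 4 and 6 (-4.09 ± 0.45, adjusted p = 0.0015). The inflammasome-related pseudogene Nlrp1c-ps was 49, 53, 77 and 61 against 1, 1, 2 and 1 (adjusted p = 0.00293). The immediate early gene Fosb was 62, 61, 260 and 73 against 2, 2, 12 and 2 (adjusted p = 0.00786), 1 of 23 in its list. Each of these 6 stayed called without any single library. All but Cyp2f2 passed the filter only through C57BL/6, so they had to be lower in 129S1/SvImJ.

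Some called genes have near-identical copies, and their differences are uncertain because the authors' counting could split reads between them. Ndufs5, a complex I subunit, was 69, 61, 77 and 69 against 3, 6, 3 and 4, while BC002163, which GENCODE vM21 annotates as a processed pseudogene, was 1, 1, 1 and 9 against 74, 156, 161 and 119. Likewise the enolase gene Eno1, named after its values were seen, was lower (327, 307, 397 and 447 against 125, 170, 201 and 176, adjusted p = 0.0136, 0.0544 without C57BL/6 replicate 3), while Gm5506, listed as Eno1b by RefSeq, was 1, 1, 1 and 5 against 98, 160, 162 and 189. Of these pairs, the lower member was the gene and the higher the copy in 129S1/SvImJ. Rprl3, an RNase P RNA family gene, had the largest fold change of all (8, 1, 1 and 1 against 1320, 453, 613 and 996), and Rpl29 was 76, 77, 41 and 39 against 4, 2, 3 and 4. Apart from Eno1, the genes of this paragraph passed the filter only through the strain where they were high, so they had to differ.

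Further called genes, chosen here after their values were seen, included abundant transcripts of fat. Trf, the plasma iron carrier transferrin, was 22941, 19917, 21259 and 18270 in C57BL/6 and 6280, 6749, 9248 and 5502 in 129S1/SvImJ (-1.59 ± 0.18, adjusted p = 0.00157). Slc1a5, a glutamine transporter, was 13061, 10779, 9949 and 10671 against 3040, 4035, 3319 and 5536 (-1.51 ± 0.20, adjusted p = 0.00412). Both were well apart between the strains and stayed called without any 1 library. Ucp2, a mitochondrial carrier, was 327, 322, 397 and 690 against 1521, 1127, 948 and 1100 (1.49 ± 0.25, adjusted p = 0.0134, up to 0.0685 without C57BL/6 replicate 1, 2 or 3). Glo1, the glyoxalase that detoxifies methylglyoxal, was 143, 126, 141 and 118 against 262, 439, 397 and 347 (1.42 ± 0.18, adjusted p = 0.00399). The C57BL/6 and 129S1/SvImJ ranges of Ucp2 and Glo1 did not overlap either. The Ugt1a glucuronidation locus contributed 8 called entries that share exons, so they count as 1 locus. Its Ugt1a6a entry was 269, 298, 405 and 195 against 596, 1195, 1208 and 806 (adjusted p = 0.0108, 0.0574 without C57BL/6 replicate 1). Igfals, a subunit of the circulating complex that carries insulin-like growth factors, was 346, 442, 641 and 183 against 49, 65, 81 and 37 (-2.70 ± 0.37, adjusted p = 0.00475).

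In eWAT of the same diet, fitted the same way, 5550 of 12015 genes were called (46.2%), 2929 higher (24.4%) and 2621 lower (21.8%) in 129S1/SvImJ. As in iWAT, each strain's eWAT libraries carry their own run of library numbers, so strain is mixed with library run there too. The part of library run in calls shared by the depots was not tested. Of the 245 genes called in iWAT, 239 were tested in eWAT. There 197 were called in the same direction, which is 80.4% of the iWAT list and 3.55% of the eWAT list. A further 33 were not called and 9 were called in the opposite direction. Among the 9 were Rpl41, Rpsa, Ubb and Ftl1, which have near-identical copies, 3 entries of the Pcdhg cluster, which share exons, and Mtrnr2l. Bst2 was 190, 201, 178, 150 and 145 in C57BL/6 eWAT and 56, 54, 44 and 51 in 129S1/SvImJ eWAT (-1.73), and its strain difference was not called as differing between depots (adjusted p = 0.776). In the antiviral list, 23 of 28 genes tested in eWAT were lower, beside 21.8% of all genes there, and 1 of the 33 genes tested in iWAT, Rtp4, was called for a difference between depots. In the fatty acid synthesis list, 17 of 21 genes were called lower in eWAT and 1 higher, with a median of -1.32. Of its 21 genes tested in iWAT, 0 were called for a difference between depots.

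That difference was tested for each gene as the strain difference in iWAT minus that in eWAT over 17 libraries, taken as independent. The labels do not say whether libraries of both depots came from the same mice, and pairing by animal was not tested. Library run and the coarse values of C57BL/6 iWAT enter this difference as well. In this test 718 of 12203 genes were called (5.88%), 45 of them among the 245. The count was 1157 without C57BL/6 iWAT replicate 4 and 1245 without the 3 lymphocyte-rich libraries. It was 468 without 129S1/SvImJ iWAT replicate 4, and 382 to 444 without any 1 of C57BL/6 eWAT replicates 1, 2, 3 and 5 or 129S1/SvImJ eWAT replicates 1 and 3. Sult1e1, which sulfates and inactivates estrogens, was 162, 134, 167 and 95 against 19, 20, 30 and 16 in iWAT (-2.66 ± 0.29) and 98, 123, 139, 117 and 57 against 94, 91, 119 and 217 in eWAT (0.25). The strains did not overlap in iWAT and overlapped in eWAT (difference -2.91 ± 0.42, adjusted p = 0.00133). Igf1, insulin-like growth factor 1, was 2130, 2284, 1879 and 1528 against 1063, 1164, 1298 and 1022 in iWAT (-0.77 ± 0.16, adjusted p = 0.0378) and 0.16 on the log2 scale in eWAT (difference -0.93 ± 0.19, adjusted p = 0.01). Its iWAT call was lost without C57BL/6 replicate 1, 2 or 3 or 129S1/SvImJ replicate 2, 3 or 4 (up to 0.124), while its difference between depots was called in all 17 fits with a library left out. Sult1e1 and Igf1 were also chosen after their values were seen.

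Rab6b, which passed the iWAT filter only through C57BL/6, was lower in 129S1/SvImJ in both depots. Its log2 fold changes were -4.09 in iWAT and -1.56 in eWAT (difference -2.53 ± 0.44, adjusted p = 0.00419). Rtp4 differed likewise (-1.95 in iWAT and -0.66 in eWAT, difference adjusted p = 0.0383), but that call was lost in 9 of the 17 fits with a library left out (up to 0.0742). These were the fits without C57BL/6 replicate 1 or 129S1/SvImJ replicate 1 or 4 of iWAT, or without C57BL/6 replicate 1, 3, 4 or 5 or 129S1/SvImJ replicate 2 or 3 of eWAT. In the endothelial list 16 of 17 genes were called lower in 129S1/SvImJ eWAT, where 21.8% of all genes were, and 1 in iWAT, where 1.35% were. For 5 of the 17 the difference between depots itself was called, beside 5.88% of all genes. Of these 5, Cldn5 lost that call in 12 of the 17 fits with a library left out (limma adjusted p up to 0.0935). Vwf lost it in 13 (up to 0.0845). Also among the 5, Pecam1, a junction protein of endothelium, was 608, 1064, 958 and 915 against 1294, 793, 911 and 876 in iWAT and 1239, 1212, 1259, 1198 and 1283 against 491, 486, 447 and 700 in eWAT (difference 1.37 ± 0.24, adjusted p = 0.00443). The strains overlapped in iWAT and lay apart in eWAT for Pecam1. The difference between depots of Pecam1, Tie1 and Egfl7 was called in all 17 fits with a library left out. These 5 endothelial genes were named after their values were seen.

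**Figure D5:**
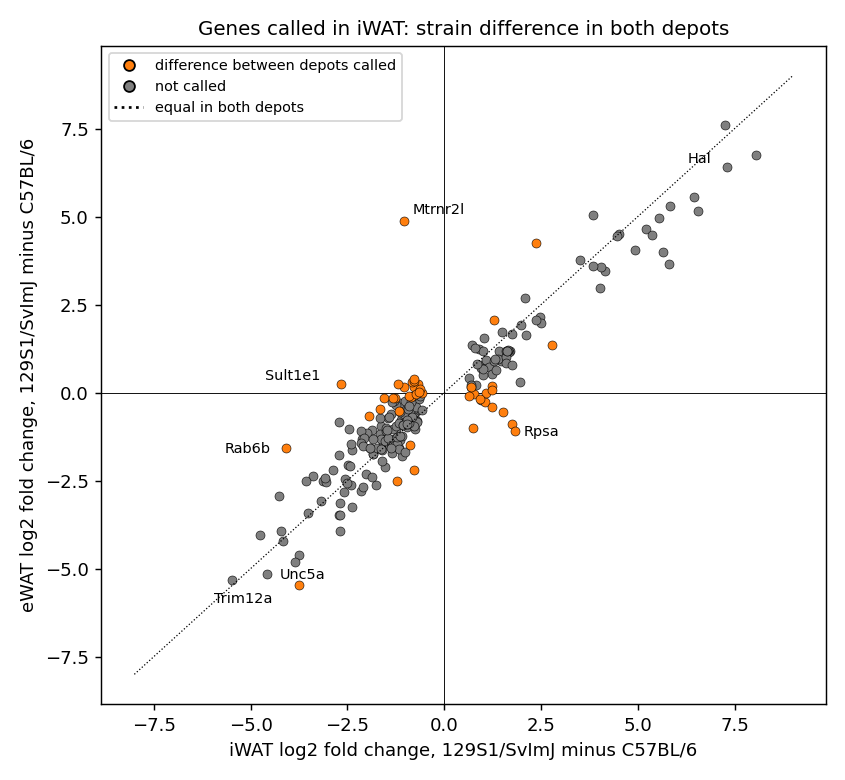
Log2 fold change (129S1/SvImJ minus C57BL/6) in iWAT and in eWAT of the 239 genes called in iWAT and tested in both depots, with genes called for a difference between depots in orange and the line of equal change dotted. Hal and Trim12a lie near that line, whereas Sult1e1, Rpsa and Mtrnr2l lie away from it.

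The authors' deposited table for iWAT gives its own fold change per transcript, which had the same direction for 245 of the 245 called genes. Its p was under 0.05 for 205 of them, and for 10720 of all 28644 transcripts. It compares the same libraries, and the groups of all 245 did not overlap, so the shared direction is not independent support.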

How the data were processed

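Per the labels' protocols, RNA was extracted with Trizol and RNeasy, and TruSeq RNA libraries were read on an Illumina Genome Analyzer. The submitters' processing notes list HOMER and mouse build mm9. The counting and normalization steps are not given in the sources at hand. The deposited values are scores per transcript, whole numbers that the authors had already normalized, since libraries share their highest values. They are not raw counts, so no counting interval could be given. The deposited iWAT table also holds the authors' log2 fold change (C57BL/6 over 129S1/SvImJ) and p-value per transcript. Each column was assigned to its sample through the library number that both carry.

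Of 28644 transcripts, the one with the highest iWAT total was kept for each of 22869 gene symbols. Genes with a mean of 20 or more in a group were kept, 11359 in both groups, 423 through C57BL/6 alone and 421 through 129S1/SvImJ alone. Values were put on the scale log2(value + 1), and the added 1 shrinks the ratio of low values. The coarse steps of the C57BL/6 iWAT libraries can move such a value up or down to the floor. Large changes of genes near the floor are therefore uncertain in size and are not lower limits. Each fit used limma 3.58.1 in R 4.3.3, with 1 mean per group, trend and robust settings, two-sided tests and Benjamini-Hochberg adjustment. The contrasts were the strains in iWAT, the strains in eWAT, and the difference of both over 17 libraries, which rests on the deposited tables of both depots having the same maximum.

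The comparison, the gene lists (27) and the naming rule were chosen with earlier results of these data known. Named were the 10 largest called changes in each direction without overlap, up to 5 called members per list (the 2 with the smallest p where none was called), and 17 genes listed by name. The text describes those that carry a result, and says where others were added. In simulated data for the iWAT comparison (12203 genes, 200 changed), the fit called 40% of genes changed by 1 on the log2 scale and 68% of those changed by 2, and 3.57% of its calls were unchanged genes. The simulated means were raised away from the floor and the errors were drawn independently for each gene and library. These rates therefore do not cover genes near the floor or variation that genes share, as in the lymphocyte-rich libraries. The settings tried in addition were another pseudocount (16), other filters, another choice of transcript, median centring, array weights, other moderation, a fit of 17 libraries, the replicate block, single libraries left out, and, chosen after seeing the data, the lymphocyte list as a term and 3 libraries left out. Most called genes are given by count only, and some items are not reported here.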

Additional observations from a re-analysis of the deposited data

Results flagged for a closer look

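Within groups of 4 libraries, 1 library stood far from the other 3 in the following cases. The measure was Dixon's ratio of the gap to the range, taken on log2(value + 1), which was above its 95% critical value. Chance gives this in about 1 in 20 groups. Many genes and list sums were looked at in both strains, so the cases below can be chance. In C57BL/6, replicate 4 stood apart for the T cell gene Cd3d (1, 1, 1 and 133, ratio 1.00) and, downwards, for the prolactin receptor gene Prlr (95, 93, 95 and 61, 0.952), and replicate 4 was also highest for the summed antigen presentation list (0.925). Replicate 3 stood apart for Fosb (62, 61, 260 and 73, 0.877) and Pttg1 (136, 134, 167 and 137, 0.899). Replicate 1 was the lowest for the glucose transporter gene Slc2a4 (1416, 1462, 1459 and 1456, 0.871), and replicate 2 the highest for the summed epididymis list (13, 22, 13 and 13, 1.00), where 13 is the floor of its 13 genes. In 129S1/SvImJ, replicate 4 stood apart for Cidea (0.899) and Nnt (190, 202, 201 and 136, 0.845), and replicate 1 for the summed antigen presentation list (0.840) and the summed skeletal muscle list (0.949).

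Of the genes that the naming rule gives, 6 passed the test of the strain difference in iWAT minus that in eWAT. It was -3.61 for Fosb and -2.53 for Rab6b, both called in all 17 fits with a library left out, and -1.30 for Rtp4, whose call was lost in 9 of them. For Rpl29, whose near-identical copies make it uncertain, it was 1.70, lost in 11 of the 17 (adjusted p up to 0.0842 with limma) and kept only without C57BL/6 replicate 1, 2 or 4 or 129S1/SvImJ replicate 2 or 3 of iWAT, or 129S1/SvImJ replicate 4 of eWAT. For Fcgr1 it was -1.77, lost in 13 (up to 0.0869) and kept only without C57BL/6 replicate 1 or 3 or 129S1/SvImJ replicate 2 of iWAT, or 129S1/SvImJ replicate 1 of eWAT. For H2-T23 it was 1.28, lost in 12 (up to 0.0766) and kept only without C57BL/6 replicate 1 or 4 or 129S1/SvImJ replicate 2 or 3 of iWAT, or 129S1/SvImJ replicate 2 of eWAT. Fosb, Rab6b, Rpl29 and Fcgr1 passed the iWAT filter only through C57BL/6, so the direction of their iWAT difference was set by the filter. Fosb had means of 16.2 in C57BL/6 and 9 in 129S1/SvImJ eWAT, under the filter in that depot.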

How the results depend on the processing

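All 245 genes called in iWAT kept their sign in each of the 8 fits without 1 library, and 82 of them also kept their call in all 8. The count of calls was 109 to 276 over these fits. It was 387 with no filter (259 higher, 128 lower), 1078 with array weights (536 higher, 542 lower), 1422 in the fit of 17 libraries of both depots (600 higher, 822 lower), 895 with the lymphocyte list as a term (428 higher, 467 lower, 245 of them shared) and 587 with the 3 lymphocyte-rich libraries left out. The coarse low values of the C57BL/6 libraries limit every low gene. Median centring left 242 calls. The deviations of same-numbered libraries correlated at -0.21, 0.25, 0.37 and 0.60, and those of differently numbered libraries at -0.67 to 0.62. Deviations from a group's own mean depend on each other, so these values cannot tell whether the replicate numbers pair the samples. With the replicate block the count was 295, of which 201 were among the 245. The eWAT count was 4858 to 5923 without single libraries. The count of differences between depots was 382 to 1157 without single libraries, 267 with the replicate block and 1245 with the 3 iWAT libraries left out.

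Of the results named singly, only uncalled genes changed sign, and the cause was not tested. Without single libraries, Cd36 ranged from -0.041 to 0.088, Cidea from -0.063 to 1.33, Gpm6a from -0.45 to 0.39, Plin1 from -0.14 to 0.091, Pparg from -0.079 to 0.20 and Ucp1 from -0.0067 to 3.34 on the log2 scale. With the lymphocyte term Cidea was -0.086 and Plin1 -0.042, with array weights Plin1 was -0.084 and Prlr 0.049, and with the 3 libraries left out Plin1 was -0.062, Pparg -0.085 and Prlr 0.054. Of the 39 called genes named by the rule, 29 kept their call without any single library, 37 with the 3 libraries left out, 28 with no filter and 30 without trend and robust settings.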
